A study of Mus musculus with 24 samples.

Results

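The stretch by knockdown interaction asks which genes answered cyclic stretch differently once MuRF1 had been reduced. For every gene it is the log2 stretch response of knockdown cells minus the log2 stretch response of control cells, and a gene is said here to have risen or fallen in the interaction when that difference was above or below 0 and passed the test. The libraries were chosen by their titles and comprised all 24 of the 24 in the study, 6 in each of 4 groups. The main counts are given with all 24 libraries and for the 23 that remain without stretched control replicate 5, because that library stood apart from the rest. The series title gives the purpose as the part MuRF1 plays in transcription during cyclic stretch.

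All groups were HL-1 cells, an immortalised line derived from mouse atrial cardiomyocytes, so that the data describe a single line in culture. All of them had received adenovirus at 30 infectious units per cell 48 h earlier and had been moved to serum-free DMEM. The virus delivered a scrambled short hairpin RNA to control cells and one directed at MuRF1 to the others, which lowers the transcript for a time and deletes nothing. Stretched cells underwent 15% cyclic stretch at 1 Hz for 60 min and were harvested at once, while non-stretched cells stood in parallel for 0 min. One label gives the stretch as uniaxial and another as biaxial. Nothing says that replicates were separate cultures, so the p-values measure the spread between these libraries alone, and it may be technical.

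MuRF1, the product of Trim63, is a ubiquitin ligase of striated muscle that binds titin at the sarcomere and marks contractile proteins for the proteasome. Mechanical stretch of heart muscle cells is known to switch on immediate early genes such as the AP-1 subunits of the Fos and Jun families, followed by genes of the cytoskeleton and of hypertrophic growth. The integrated stress response is a separate programme in which kinases that sense amino acid shortage, endoplasmic reticulum stress or viral RNA raise the translation of Atf4, a transcription factor that then drives genes such as Ddit3, Trib3 and Asns.

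The 4 promoter sequences shown here belong to the gene with the largest called interaction and to 3 stress genes that fell in the interaction. Each is the 250 bases before a RefSeq transcription start on GRCm38.p6, written 5′ to 3′ on the gene's own strand. Fosb lies on the minus strand at chr7:19310046-19310295, and capitals mark the 5 bases TGACG, the half-site of the cyclic AMP response element. Asns (minus strand, chr6:7693210-7693459), Nupr1 (minus strand, chr7:126625471-126625720) and Herpud1 (plus strand, chr8:94386179-94386428) carry in capitals a match on either strand to TGATGNAA, the core of the composite site bound by C/EBP and ATF family proteins such as Atf4.
Fosb: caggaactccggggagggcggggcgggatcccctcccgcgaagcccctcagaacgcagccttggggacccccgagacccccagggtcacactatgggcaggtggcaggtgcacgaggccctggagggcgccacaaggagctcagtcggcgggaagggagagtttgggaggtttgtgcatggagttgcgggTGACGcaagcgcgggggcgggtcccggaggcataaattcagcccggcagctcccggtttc
Asns: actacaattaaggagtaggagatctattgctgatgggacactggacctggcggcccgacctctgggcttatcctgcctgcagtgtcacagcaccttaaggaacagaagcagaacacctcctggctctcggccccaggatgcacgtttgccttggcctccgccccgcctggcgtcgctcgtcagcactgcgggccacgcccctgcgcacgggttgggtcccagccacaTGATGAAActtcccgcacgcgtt
Nupr1: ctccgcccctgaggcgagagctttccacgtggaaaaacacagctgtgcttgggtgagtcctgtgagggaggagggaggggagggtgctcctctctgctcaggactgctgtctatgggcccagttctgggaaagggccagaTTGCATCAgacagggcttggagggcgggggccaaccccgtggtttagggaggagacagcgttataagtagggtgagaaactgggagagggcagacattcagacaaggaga
Herpud1: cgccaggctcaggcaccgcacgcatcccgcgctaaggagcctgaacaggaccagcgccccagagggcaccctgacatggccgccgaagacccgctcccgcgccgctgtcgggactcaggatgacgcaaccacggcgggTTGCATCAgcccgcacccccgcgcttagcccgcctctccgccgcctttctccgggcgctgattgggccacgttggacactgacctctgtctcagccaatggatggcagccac

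The match begins 23 bases before the start in Asns, 110 in Nupr1 and 112 in Herpud1. TGATGNAA occurred in 3.45% of the 32851 promoter windows and in 2.61% of the 10579 tested genes that have one. Among the called genes of the analysis without stretched control replicate 5, it was found in 4 of 24 that fell and in 2 of 63 that rose. The fourth fall was Vgll3, which was lowly expressed, at an average log2 CPM of -0.85. The TGACG half-site was common, in 28.9% of the tested genes with a window, in 14 of 63 rises and in 11 of 24 falls. A match describes letters only, and no factor's binding was measured. Windows of Ddit3, Trib3, Atf4 and Sdf2l1 held no match to TGATGNAA. Further motifs were searched on both strands. TGACGTCA, which contains TGACG, was in 1.55% of windows, 2.87% of the tested genes and none of the called genes. TGACTCA was in 4.46% of windows, 4.13% of the tested genes, 2 rises and 2 falls. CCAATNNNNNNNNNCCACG was in 0.113% of windows, 0.180% of the tested genes and none of the called genes.

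The depth was 37705400 to 54755200 estimated counts in 23 libraries and 23564300 in stretched control replicate 5. That library held 1.45% mitochondrially encoded transcripts against 2.49% to 3.67% in the others, and it stood at 54.7 on the second principal component against -14.9 to 13.2. Trim63, the gene the hairpin targets, checked the labels: its lowest control library stood at 536 CPM (scaled counts relative to library size) and its highest knockdown library at 83.5 CPM. Atrial cardiomyocyte markers summed to 2144 to 2582 CPM in control libraries and to 1139 to 1303 CPM in knockdown libraries, with Tnnt2, Gata4, Ryr2 and Myl7 the most abundant. Of 15 macrophage markers, 13 were in the deposited table, and 12 of these averaged under 0.5 CPM. Ptprc and Tyrobp were not in that table, so they have no value here. In bulk libraries, fewer cells of a type and less RNA per cell cannot be told apart.

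With all 24 libraries, 3 genes differed in their stretch response between knockdown and control cells, and all 3 rose in the interaction. They were Fosb, Pdzd2 and Dkk3, out of 14411 genes tested, or 0.0208%. At an unadjusted p under 0.05, 1355 genes passed (9.40%), of which 936 had a positive and 419 a negative interaction. The test was edgeR's quasi-likelihood test with Benjamini-Hochberg adjustment over all tested genes and a threshold of 0.05.

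Fosb encodes an AP-1 subunit that partners with Jun proteins, and its promoter is shown above. It had the largest of the 3 interactions. In control cells its level was 3.57, 6.15 and 9.59 CPM (lowest, median and highest of 6) without stretch and 5.59, 6.98 and 8.87 CPM with stretch. In knockdown cells it was 5.41, 6.93 and 9.45 CPM without stretch and 20.8, 27.6 and 38.5 CPM with stretch. The lowest stretched knockdown library was thus above every library of the other 3 groups, which overlapped each other. Fosb rose with stretch by 2.04 on the log2 scale in knockdown cells (SE 0.191, adjusted p = 2.95e-07 by edgeR), while its log2 change in control cells was 0.17 (SE 0.211, adjusted p = 0.698). The interaction was 1.87 (SE 0.284, 95% interval 1.28 to 2.45, adjusted p = 0.0181 by edgeR), and 1.88 (SE 0.308, adjusted p = 0.0149) without stretched control replicate 5. Fosb (ENSMUSG00000003545) lies on chromosome 7 at 19302696 to 19310051 on the minus strand of GRCm38.

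Pdzd2, which encodes a protein with several PDZ domains, was lower in every knockdown library than in every control library, and without replicate 5 it fell with stretch in control cells and rose in knockdown cells. In control cells without stretch it stood at 228, 235 and 241 CPM (lowest, median and highest of 6). Stretched control libraries other than replicate 5 stood at 205 to 226 CPM, below all of the non-stretched ones, and replicate 5 stood at 257 CPM, above all of them. In knockdown cells the level was 55.1, 64.4 and 68.2 CPM without stretch and 74.9, 77.5 and 83.1 CPM with stretch, with no overlap. The interaction was 0.38 (SE 0.0652, adjusted p = 0.0222 by edgeR), and 0.43 (SE 0.0526, adjusted p = 0.000103) without replicate 5. Pdzd2 (ENSMUSG00000022197) lies on chromosome 15 at 12359711 to 12739924, minus strand.

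Dkk3 encodes a secreted protein of the Dickkopf family, whose other members inhibit Wnt receptors. It was measured at 429, 450 and 462 CPM (lowest, median and highest of 6) in non-stretched and 407, 439 and 456 CPM in stretched control cells, which overlapped. In knockdown cells it was 99.1, 106 and 115 CPM without stretch and 114, 129 and 138 CPM with stretch, so that 1 stretched library fell within the non-stretched range. It rose by 0.27 with stretch in knockdown cells (SE 0.0397, adjusted p = 5.53e-05 by edgeR), and the interaction was 0.31 (SE 0.0555, adjusted p = 0.0301), or 0.33 (SE 0.0534, adjusted p = 0.00488) without replicate 5. Dkk3 (ENSMUSG00000030772) lies on chromosome 7 at 112116017 to 112159057, minus strand.

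**Figure D1:**
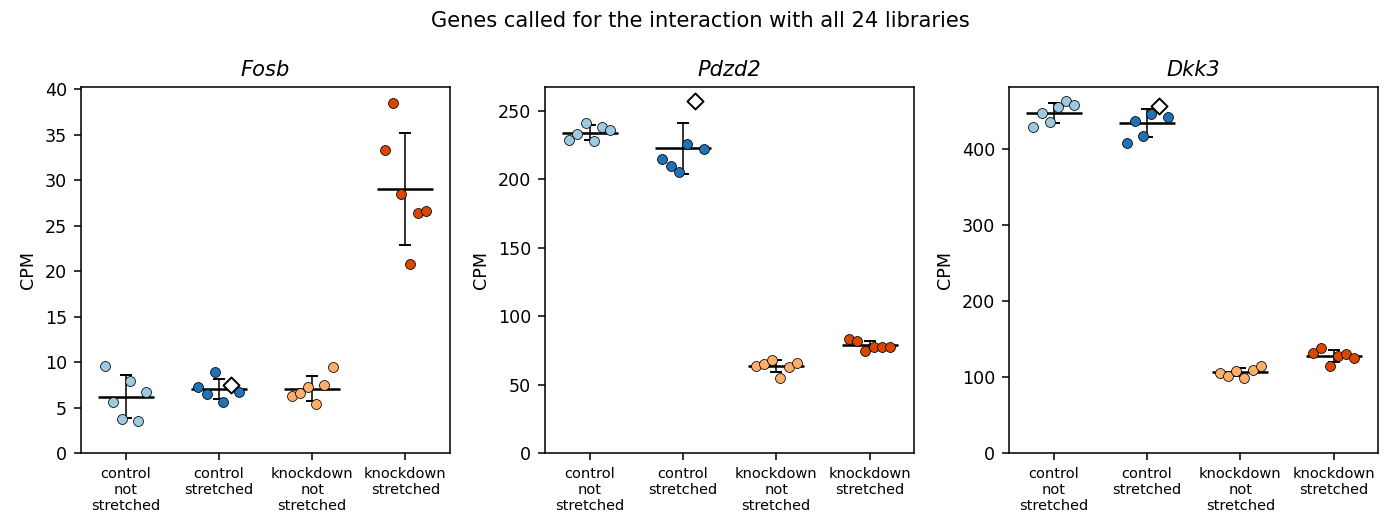
CPM of Fosb, Pdzd2 and Dkk3 in each of the 24 libraries by group, with the mean as a line and 1 SD as a bar over 6 libraries; the open diamond is stretched control replicate 5. Fosb was at 20.8 to 38.5 CPM in stretched knockdown cells and below 10 CPM in every other library, whereas Pdzd2 and Dkk3 changed little beside the difference between control and knockdown cells.

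These 3 calls rested on single libraries to different degrees. When each of the 24 libraries was left out in turn, Fosb kept its call in 22 of 24 fits, Pdzd2 in 17 and Dkk3 in 12. The number of called genes ran from 0, without non-stretched control replicate 6 or without stretched control replicate 2, to 109 without stretched control replicate 5. Without non-stretched knockdown replicate 6 it was 48, without replicate 1 of that group 17 and without its replicate 5 it was 5. Without stretched control replicate 4 it was 10, and without non-stretched control replicate 2 it was 8. It was 1 without non-stretched control replicate 5, stretched control replicate 1 or 3, or stretched knockdown replicate 1 or 2.

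Without stretched control replicate 5, 109 of 14466 genes passed (0.753%), 83 rising (0.574%) and 26 falling (0.180%). At an unadjusted p under 0.05, 2490 passed (17.2%), 1456 with a positive and 1034 with a negative interaction. All 3 genes called with 24 libraries were among the 109, and all 109 had the same direction with all 24 libraries. These fits share 23 libraries, and 12664 of the 14466 tested genes kept their direction. In most of the 109 the estimated responses of the 2 kinds of cell had opposite signs, which the choice of genes by the difference favours. Among all 14466 tested genes 2919 were positive in control and negative in knockdown cells and 2632 the reverse. Of the 83 rises, 60 were genes with a negative response in control cells and a positive response in knockdown cells, 17 had 2 positive responses and 6 had 2 negative ones. Of the 26 falls, 20 were positive in control and negative in knockdown cells. The changes were small: the median log2 interaction was 0.23 among the rises and -0.24 among the falls. Over all tested genes the median was 0.002, and 7359 of the 14466 had a positive interaction. With all 24 libraries 7617 of 14411 had one. Only 3 rises and 3 falls exceeded 1.5-fold. The rises were Fosb, Ggn and Pkd1l3, at average log2 CPM of 3.66, 2.23 and 1.13. The falls were Vgll3, Igfbp6 and RP24-317F20.1, all lowly expressed at average log2 CPM of -0.85, 0.31 and -0.92. On the scale of CPM differences, 82 of the 83 rises and all 26 falls kept their sign.

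**Figure D2:**
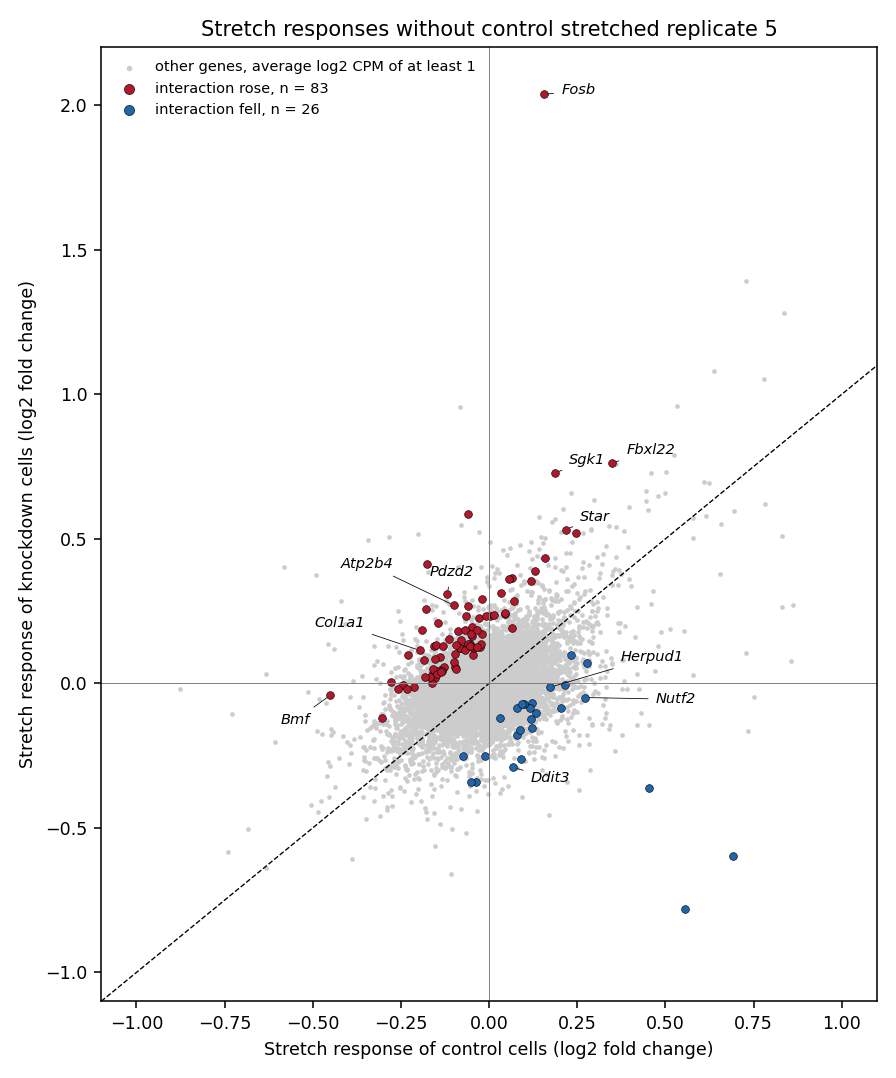
Log2 stretch response of control cells (horizontal axis) against that of knockdown cells (vertical axis) for each gene, without stretched control replicate 5; the dashed line marks equal responses, grey points are uncalled genes above an average log2 CPM of 1, and points beyond the axes are not drawn. The 83 genes that rose lie above the line and mostly to the left of 0, the 26 that fell lie below it, and Fosb stands alone at 2.04.

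A further library was then left out beside replicate 5. The count ran from 6, without stretched control replicate 2, to 329, without non-stretched knockdown replicate 6. It was 7 without stretched control replicate 3, 45 without its replicate 1 and 12 without non-stretched knockdown replicate 2. Leaving out non-stretched control replicates 1 to 6 gave 48, 63, 40, 51, 45 and 42 genes. Leaving out stretched knockdown replicates 1 to 6 gave 59, 22, 142, 47, 19 and 40. Stretched control replicates 4 and 6 gave 161 and 115. Non-stretched knockdown replicates 1, 3, 4 and 5 gave 139, 102, 163 and 110. The count was thus above 109 in some of these fits and below it in others. The 6 genes called in all 23 of these fits were Fosb, Pdzd2, Dkk3, Midn, Atp2b4 and Col1a1, which were singled out by these counts. Fosb, Pdzd2 and Dkk3 are described above.

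**Figure D3:**
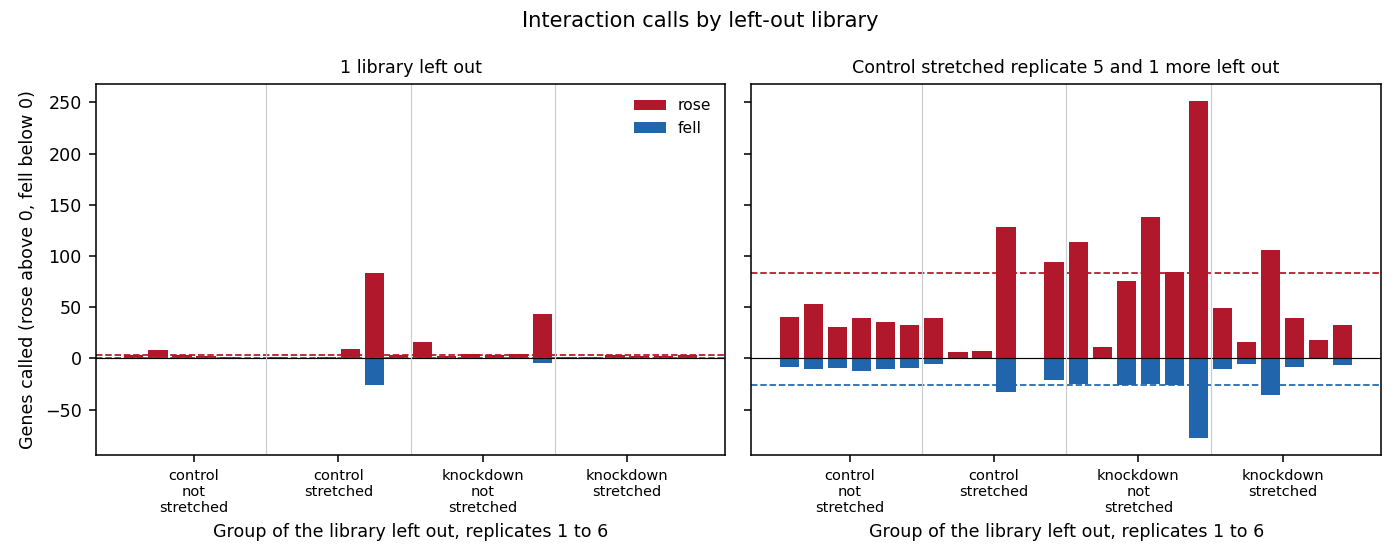
Number of genes called in the interaction when each library is left out (left) and when it is left out together with stretched control replicate 5 (right), rises above 0 and falls below 0; bars stand in the order of replicates 1 to 6 within each group, and dashed lines mark the counts with nothing further left out. The largest bars are 83 rises without stretched control replicate 5 on the left and 251 rises without non-stretched knockdown replicate 6 on the right.

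For Midn, Atp2b4 and Col1a1, replicate 5 stood above every other stretched control library. Midn encodes midnolin, which carries proteins to the proteasome and is itself an early response gene. It stood at 109 to 128 CPM in non-stretched and 133 to 146 CPM in stretched knockdown cells, without overlap. Stretched control libraries stood at 115 to 123 CPM apart from replicate 5 at 147 CPM, against 122 to 129 CPM without stretch. Its interaction was 0.30 (SE 0.0446, adjusted p = 0.00221 by edgeR) without replicate 5 and 0.25 (SE 0.0626, adjusted p = 0.125) with it.

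Atp2b4, a plasma membrane calcium pump, rose in stretched knockdown cells from 26.7 to 30.7 CPM to 32.6 to 36.8 CPM, again without overlap. In control cells the ranges overlapped, at 56.4 to 65.2 CPM without stretch and 51.8 to 63.1 CPM with stretch. The interaction was 0.37 (SE 0.0601, adjusted p = 0.00488 by edgeR) without replicate 5 and 0.34 (SE 0.0655, adjusted p = 0.0579) with it. Col1a1, a chain of type I collagen, fell with stretch in control cells, from 141 to 150 CPM down to 119 to 134 CPM in the 5 libraries other than replicate 5, which stood at 143 CPM. In knockdown cells its ranges were 48.1 to 59.8 CPM and 57.1 to 60.5 CPM. The interaction was 0.31 (SE 0.0522, adjusted p = 0.00617 by edgeR) without replicate 5 and 0.28 (SE 0.0585, adjusted p = 0.0619) with it.

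The code on each library also carries a letter, a for replicates 1 to 3 and b for replicates 4 to 6 of every group, whose meaning is not stated. Within the 12 libraries of letter a, 559 of 14370 genes were called (3.89%), 364 rising (2.53%) and 195 falling (1.36%). Within the 11 libraries of letter b without replicate 5, 0 of 14593 were called by edgeR (0%), with 997 at an unadjusted p under 0.05. With replicate 5 kept in letter b, 0 were called and 618 had an unadjusted p under 0.05. Whether the letters differ was not tested. Of the 559 genes, 533 had the same sign in letter b without replicate 5 (95.3%), against 65.3% of all genes tested in both. With replicate 5 kept it was 419 (75.0%), against 55.7% of all genes. That figure was made up of 311 of the 364 rises (85.4%) and 108 of the 195 falls (55.4%), so that the falls kept their sign no more often than all genes did.

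The base composition of the transcripts moved with these calls. The median GC content of the 364 rises in letter a was 56.4% and that of the 195 falls 43.5%, against 51.1% for all tested genes. Mitochondrially encoded transcripts took 2.49% to 2.71% of counts in non-stretched and 3.11% to 3.26% in stretched control libraries of letter a. In letter b without replicate 5 these ranges were 2.93% to 3.18% and 2.95% to 3.13%, which overlapped. With each library's trend over transcript length and GC content removed, 46 genes were called in letter a, 22 rising and 24 falling, and 44 of the 46 had the same sign in letter b without replicate 5 (95.7%, against 62.8% of all genes). Across letters, the same removal left 50 of the 14466 genes called without replicate 5 (0.346%), 27 rising and 23 falling, so that rises were 54% of the calls against 76.1% before the removal. Of the 109 genes, 36 stayed called and all 109 kept their direction.

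The leading genes can be read within each letter, where replicate 5 is left out of letter b. The interaction of Fosb was 2.12 (SE 0.412, adjusted p = 0.0313 by edgeR) in letter a and 1.70 (SE 0.430, adjusted p = 0.687) in letter b. That of Pdzd2 was 0.45 (SE 0.0511) and 0.40 (SE 0.0767), and that of Dkk3 was 0.36 (SE 0.0786) and 0.29 (SE 0.0656). All 109 genes had the same sign in both letters, which the choice of the genes on the pooled libraries favours.

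Among early response genes few passed the test. Of 34 immediate early genes tested, Fosb alone passed with all 24 libraries, and Fosb and Ier5 rose without replicate 5. Of the 34, 28 had a positive interaction without replicate 5, as did 7359 of all 14466 tested genes. Their median was 0.13 against 0.002 for all genes. DESeq2 called 6 of them, all rising, among the 417 rises it called over all tested genes without replicate 5. In letter a 31 of the 34 were positive and 5 rose: Fosb, Fosl2, Egr2, Ier5 and Csrnp1. With the length and GC trend removed the median was 0.07 and Fosb alone passed, Ier5 having an adjusted p of 0.0641. Ier5, an early gene that regulates a phosphatase acting on heat shock factor, went from 76.9 to 89.6 CPM to 102 to 108 CPM in knockdown cells. In control cells it went from 73.8 to 83.6 CPM to 82.4 to 91.3 CPM, and the interaction was 0.24 (SE 0.0503, adjusted p = 0.0313 by edgeR) without replicate 5 and 0.24 (SE 0.0502, adjusted p = 0.0619) with it. In letter b without replicate 5 it was 0.14 (SE 0.0804, adjusted p = 0.754).

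Other members of the family are given as intervals without replicate 5, and were chosen after their values were seen. Fosl2, a Fos-related AP-1 subunit, was induced in both kinds of cell, by 0.34 in control (SE 0.0361) and by 0.54 in knockdown cells (SE 0.0355), with an interaction of 0.20 that just missed the threshold (95% interval 0.10 to 0.31, adjusted p = 0.0508 by edgeR). Fos had an interaction of 0.84 with a wide interval of 0.17 to 1.51 (adjusted p = 0.189), and Egr1 one of 0.62 (-0.12 to 1.36). Jun was induced to similar sizes, by 0.62 (SE 0.108) and 0.69 (SE 0.10), with an interaction interval of -0.24 to 0.38. Atf3, a stress-induced member of the ATF family, rose by 0.58 (SE 0.0833) and 0.57 (SE 0.0741), with an interval of -0.24 to 0.23. Intervals of this width do not show that Jun and Atf3 responded alike.

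Of 15 MAP kinase feedback regulators, 22 targets of SRF and its actin-regulated cofactors MRTF, and 18 targets of YAP and TEAD, 0 were called by edgeR without replicate 5. In each of the 3 lists 3 members had an unadjusted p under 0.05, against 17.2% of all tested genes. With all 24 libraries 0 were called and 2 in each had such a p, against 9.40% of all tested genes. In letter a, Dusp16 of the first list fell, and Amotl2 and Arhgef17 of the third rose. DESeq2 called 1 rise among the first, none among the second and 1 fall among the third, and limma-voom called none. The median responses of the SRF and MRTF targets were 0.12 in control and 0.12 in knockdown cells. Srf itself rose by 0.35 (SE 0.0429) and 0.37 (SE 0.0413), with an interaction interval of -0.10 to 0.15.

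Heart muscle genes gave few calls. Of 27 sarcomere genes and 15 markers of hypertrophy and stretch, 0 were called by edgeR, DESeq2 or limma-voom without replicate 5, with 6 and 1 at an unadjusted p under 0.05. With all 24 libraries 0 were called as well, with 4 and 1 at such a p. Over all tested genes 17.2% had such a p without replicate 5 and 9.40% with all 24 libraries. Ankrd1, an ankyrin repeat protein that shuttles between the sarcomere and the nucleus, rose in both kinds of cell, by 0.65 (SE 0.0702) and 0.38 (SE 0.0661), and its interaction was -0.28 (95% interval -0.48 to -0.08, adjusted p = 0.158 by edgeR). Actc1, cardiac actin, rose by 0.50 (SE 0.0715) and 0.73 (SE 0.0732), with an interaction of 0.23 (0.02 to 0.44, adjusted p = 0.249). The natriuretic peptide genes Nppa and Nppb varied too much between libraries to be placed, with intervals of -0.37 to 0.97 and -0.47 to 0.87.

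The genes tied to heart muscle that edgeR called without replicate 5 were single members of their lists. In the same libraries DESeq2 called 4 rises among calcium handling and channel genes and 3 among cardiac transcription factors. Over all tested genes it called 417 rises. Within letter a, edgeR called Ryr2, Cacna1c and Kcnh2 of the first list and Gata4 and Tbx5 of the second, all rising. Over all tested genes 2.53% rose in letter a. Cacna1c, the pore of the L-type calcium channel, had an interaction of 0.26 (SE 0.0599, adjusted p = 0.0392 by edgeR) without replicate 5, 1 of 24 calcium handling and channel genes called. Tbx5, a transcription factor of the atrial programme, rose by 0.23 (SE 0.0478, adjusted p = 0.0264), 1 of 16 cardiac transcription factors. Both lost their calls with all 24 libraries, Cacna1c at adjusted p = 0.34 and Tbx5 at 0.273, and Cacna1c also with the trend removed (adjusted p = 0.0825).

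Of 22 muscle ubiquitin ligases and atrophy genes, DESeq2 called 2 rises without replicate 5. Only Fbxl22, an F-box protein that targets sarcomere proteins for degradation, was called by edgeR in those libraries. It went from 7.60 to 9.61 CPM to 10.3 to 11.6 CPM with stretch in control cells other than replicate 5, which stood at 9.56 CPM. In knockdown cells it went from 2.53 to 3.42 CPM to 4.71 to 5.38 CPM, so it was induced in both, from a lower base where MuRF1 was reduced. Its interaction was 0.41 (SE 0.0948, adjusted p = 0.039 by edgeR) without replicate 5 and 0.44 (SE 0.0953, adjusted p = 0.0668) with it, and the adjusted p with the trend removed was 0.0641. On the scale of CPM differences the sign of Fbxl22 was the opposite, -0.037 CPM with all 24 libraries. Thra, a thyroid hormone receptor listed among reported MuRF1 partners, rose by 0.20 (SE 0.0495, adjusted p = 0.0462) without replicate 5, 1 of 12, and did not pass with all 24 libraries (adjusted p = 0.383) or with the trend removed (adjusted p = 0.158).

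The MuRF genes themselves gave no call. Trim63 rose with stretch by 0.29 in control cells (SE 0.0718) and by 0.30 in knockdown cells (SE 0.0754), and its interaction was 0.01 (95% interval -0.20 to 0.23, adjusted p = 0.988 by edgeR) and -0.02 (-0.25 to 0.20, adjusted p = 0.943) without replicate 5. The interval allows differences up to about those bounds. Trim55, which encodes MuRF2, had an interaction of 0.17 (0.04 to 0.30, adjusted p = 0.371), and 0.17 (adjusted p = 0.184) without replicate 5. Trim54 (MuRF3) did not pass the filter on low counts, with 0 CPM in every control library and at most 0.046 CPM in a knockdown library.

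Of 26 integrated stress response genes, 5 passed without replicate 5, and all 5 fell: Atf4, Ddit3, Trib3, Asns and Nupr1. Over all tested genes 0.180% fell. Of the 26, 25 had a negative interaction, whereas 7359 of all 14466 tested genes had a positive one. The median of the 26 was -0.13 against 0.002 for all genes. Their median response was 0.08 in control cells and -0.05 in knockdown cells. DESeq2 called 7 falls and limma-voom 6, against 109 and 24 falls over all tested genes. With all 24 libraries 0 of the 26 were called by edgeR, 10 having an unadjusted p under 0.05, at a median of -0.12 with 25 negative, while DESeq2 called 3. The median was -0.10 within each letter, with 0 of the 26 called in letter b without replicate 5. In letter a 5 of the 26 fell, against 1.36% of all tested genes: Ddit3, Trib3, Nupr1, Cebpg and Mthfd2. Atf4 and Asns were not called there. With the length and GC trend removed, 6 of the 26 fell, at a median of -0.14. They include Ddit3, which had no length or GC value, so that no trend was removed from it.

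Ddit3 encodes CHOP, a transcription factor linked to cell death under stress. Its level in knockdown cells was 55.2, 57.2 and 63.4 CPM (lowest, median and highest of 6) without stretch and 45.0, 46.1 and 53.1 CPM with stretch, so that all stretched libraries were below all non-stretched ones. In control cells it was 39.9, 44.2 and 46.1 CPM without stretch. With stretch it was 40.2, 45.6 and 50.7 CPM in the 5 control libraries other than replicate 5, which stood at 38.7 CPM, and the ranges overlapped. The interaction was -0.36 (SE 0.0744, adjusted p = 0.0283 by edgeR), or -0.33 (SE 0.0798, adjusted p = 0.102) with all 24 libraries.

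Trib3, a pseudokinase induced by Atf4 and CHOP, was at 99.0 to 112 CPM in non-stretched and 84.6 to 96.1 CPM in stretched knockdown cells, which did not overlap. Control cells stood at 71.3 to 79.7 CPM and 73.8 to 84.0 CPM, with replicate 5 at 92.3 CPM. The interaction was -0.26 (SE 0.0531, adjusted p = 0.0264 by edgeR), or -0.29 (SE 0.0607, adjusted p = 0.0619) with all 24.

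Nupr1, a small stress-induced nuclear protein, went from 92.4 to 98.6 CPM to 99.1 to 109 CPM in control cells other than replicate 5 (adjusted p = 0.0523 for that response), while replicate 5 stood at 80.0 CPM. In knockdown cells it went from 73.1 to 93.4 CPM to 68.3 to 75.0 CPM, which overlapped. The interaction was -0.28 (SE 0.0586, adjusted p = 0.0313 by edgeR), or -0.22 (SE 0.0793, adjusted p = 0.344) with all 24. Asns, asparagine synthetase, had an interaction of -0.17 (SE 0.0387, adjusted p = 0.0392), which did not pass with the trend removed (adjusted p = 0.0641). Atf4 itself was higher with stretch in both kinds of cell, by 0.23 in control (SE 0.0228) and by 0.10 in knockdown cells (SE 0.0217), and its interaction was -0.13 (SE 0.0315, adjusted p = 0.0409).

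The unfolded protein response is the programme set off by misfolded proteins in the endoplasmic reticulum. Of 21 of its genes, 2 fell without replicate 5, against 0.180% of all tested genes. A negative interaction was seen in 18 of the 21, with a median of -0.08, whereas 7359 of all 14466 tested genes had a positive one. With all 24 libraries 0 were called by edgeR, 2 having an unadjusted p under 0.05, at a median of -0.05. Sdf2l1, a chaperone cofactor of that compartment, was at 77.7 to 92.4 CPM in non-stretched and 69.8 to 76.8 CPM in stretched knockdown cells, without overlap. Its control levels were 43.5 to 46.6 CPM and 40.3 to 46.7 CPM. The interaction was -0.24 (SE 0.0498, adjusted p = 0.0264 by edgeR), or -0.22 (SE 0.0530, adjusted p = 0.102) with all 24 libraries.

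Herpud1, which helps to clear misfolded proteins and whose promoter is shown above, rose in control cells, from 202 to 211 CPM to 226 to 241 CPM, with no overlap also when replicate 5 was kept. In knockdown cells it stood at 226 to 252 CPM and 224 to 246 CPM. The interaction was -0.19 (SE 0.0386, adjusted p = 0.0264 by edgeR), or -0.18 (SE 0.0397, adjusted p = 0.0668) with all 24. Its interaction was -0.09 (SE 0.0372) in letter a and -0.28 (SE 0.0564) in letter b without replicate 5. Hspa5, the chaperone BiP, had an interaction of -0.12 (SE 0.0495, adjusted p = 0.219) and was not called.

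Of 32 extracellular matrix genes, 6 rose without replicate 5 and none fell: Col1a1, the basement membrane collagens Col4a1 and Col4a2, Col5a2, Fn1 (fibronectin) and Hspg2 (perlecan). Over all tested genes 0.574% rose, and 7359 of 14466 had a positive interaction. The list's median interaction was 0.13, with 26 of 32 positive, and its median response was -0.06 in control and 0.04 in knockdown cells. DESeq2 called 10 rises and limma-voom 6, against 417 and 81 rises over all tested genes. With all 24 libraries edgeR called 0, with 12 at an unadjusted p under 0.05, and DESeq2 called 3. Within letter a 9 rose, and within letter b without replicate 5 none did, at medians of 0.19 and 0.11. With the length and GC trend removed, the median was 0.07 and only Col1a1 was called (0.19, adjusted p = 0.0352), so that 5 of the 6 calls did not hold after that removal.

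Hspg2 fell with stretch in control cells, from 1431 to 1565 CPM without stretch to 1239 to 1287 CPM in the 5 libraries other than replicate 5, which stood at 1649 CPM. Knockdown cells stood at 806 to 993 CPM and 914 to 966 CPM. The interaction was 0.24 (SE 0.0516, adjusted p = 0.0325 by edgeR) without replicate 5, 0.17 (SE 0.0792, adjusted p = 0.523) with it, and 0.06 (adjusted p = 0.453) with the trend removed. Col4a1 went from 813 to 862 CPM to 730 to 797 CPM in control cells other than replicate 5, which stood at 884 CPM. It stood at 454 to 526 CPM and 503 to 526 CPM in knockdown cells. Its interaction was 0.18 (SE 0.0410, adjusted p = 0.0392 by edgeR), or 0.14 (SE 0.0531, adjusted p = 0.409) with all 24 libraries.

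**Figure D4:**
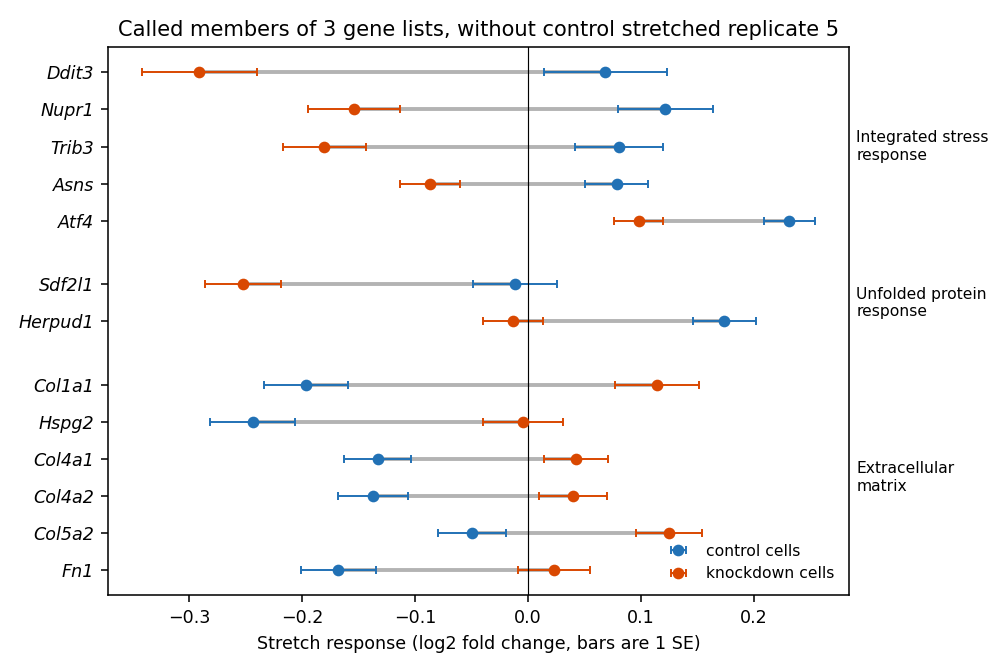
Log2 stretch response of control cells (blue) and knockdown cells (orange), with 1 SE, for the called members of the integrated stress response, unfolded protein response and extracellular matrix lists, without stretched control replicate 5. Stress genes lie further right in control cells, for example Herpud1 at 0.17 against -0.01, and matrix genes lie further right in knockdown cells, for example Col1a1 at 0.11 against -0.20.

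Metabolic and hormonal signalling genes added few rises per list by edgeR without replicate 5. Sgk1, a kinase induced by serum, glucocorticoids and osmotic stress, went from 5.78 to 9.20 CPM to 10.2 to 13.5 CPM in knockdown cells, without overlap. In control cells it went from 10.9 to 12.9 CPM to 11.2 to 15.1 CPM. The interaction was 0.54 (SE 0.119, adjusted p = 0.0357 by edgeR) without replicate 5 and 0.58 (SE 0.123, adjusted p = 0.0619) with it, and Sgk1 was the 1 called gene of 20 on the insulin and FoxO list. Of 28 glycolysis genes, Hk1, a hexokinase, and Pfkl, a phosphofructokinase, rose, by 0.18 (SE 0.0392, adjusted p = 0.0325) and 0.18 (SE 0.0436, adjusted p = 0.0479). Both fell in control cells, by 0.13 (SE 0.0282) and 0.15 (SE 0.0314), and their responses in knockdown cells were 0.05 (SE 0.0273) and 0.03 (SE 0.0303). Neither passed with all 24 libraries (Hk1 at adjusted p = 0.0619, Pfkl at 0.242), and with the trend removed Pfkl did not (adjusted p = 0.144).

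Star, the cholesterol carrier that starts steroid synthesis, was induced in both kinds of cell. It went from 13.2 to 14.5 CPM to 15.5 to 16.6 CPM in control cells other than replicate 5, which stood at 19.3 CPM, and from 10.2 to 11.5 CPM to 14.7 to 16.4 CPM in knockdown cells. Its interaction was 0.31 (SE 0.0580, adjusted p = 0.0188 by edgeR) without replicate 5 and 0.27 (SE 0.0678, adjusted p = 0.12) with it. Of 24 Wnt genes, Fzd1, a Wnt receptor, rose beside Dkk3, by 0.23 (SE 0.0518, adjusted p = 0.0377), and did not pass with the trend removed (0.15, adjusted p = 0.166). DESeq2 called 3, 3 and 1 rises in the fatty acid oxidation, clock and hypoxia lists without replicate 5. Cpt1a, Nr1d1 and Epas1 were the single members of these lists called by edgeR, with interactions of 0.19, 0.24 and 0.33. When replicate 5 was kept, Cpt1a, Nr1d1 and Epas1 had adjusted p of 0.0619, 0.0713 and 0.165 and did not pass, and with the trend removed Nr1d1 and Epas1 did not, at 0.111 and 0.156.

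Further genes were named for the size of their change above an average log2 CPM of 1, except Zfp36l1, which was named for its small p with all 24 libraries. Among the rises, Ggn and Pkd1l3 were lowly expressed, at group means of 3.58 to 5.43 and 1.69 to 2.26 CPM in the groups other than the stretched knockdown cells, where the means were 4.78 and 2.55 CPM. Bmf, a pro-apoptotic member of the Bcl2 family, fell in control cells by 0.45 (SE 0.0650) against -0.04 (SE 0.0723) in knockdown cells, an interaction of 0.41 (adjusted p = 0.0423 by edgeR). Adam19, a membrane metalloprotease, had an interaction of 0.37 (SE 0.0733, adjusted p = 0.026), and Nwd1 one of 0.44 (SE 0.103, adjusted p = 0.0416). Ggn, Pkd1l3, Bmf, Adam19 and Nwd1 did not pass with all 24 libraries, at adjusted p of 0.0668 to 0.438, or with the trend removed, at 0.0641 to 0.144. Zfp36l1, which promotes the decay of AU-rich transcripts, had an interaction of 0.23 (SE 0.0455, adjusted p = 0.026) without replicate 5 and 0.25 (adjusted p = 0.0579) with it.

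Among the falls, Nutf2, which carries Ran into the nucleus, rose in control cells from 58.2 to 66.9 CPM to 66.1 to 84.1 CPM without replicate 5, and stood at 57.8 to 63.2 and 53.7 to 62.3 CPM in knockdown cells. Its interaction was -0.32 (SE 0.0641, adjusted p = 0.0264 by edgeR). The mitochondrial genes Foxred1, an assembly factor of complex I, and Crls1, cardiolipin synthase, had interactions of -0.30 (SE 0.0689) and -0.29 (SE 0.0676). The zinc finger genes Zfp97, Zfp60 and Zfp330 had interactions of -0.35, -0.29 and -0.25, and Zfp97 and Zfp60 belong to a large family of similar genes among which reads can be shared. None of these 6 passed with all 24 libraries, at adjusted p of 0.103 to 0.442. With the trend removed Nutf2 and Foxred1 passed, at adjusted p of 0.0265 and 0.0458, and Crls1, Zfp97, Zfp60 and Zfp330 did not, at adjusted p of 0.0502 to 0.235.

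Other lists had mostly negative interactions and 0 genes called by edgeR without replicate 5 or with all 24 libraries. Over all tested genes, 17.2% and 9.40% had an unadjusted p under 0.05 in these 2 fits. A positive interaction was seen in 7359 of 14466 and 7617 of 14411 tested genes. Of 36 interferon-stimulated genes, 35 had a negative interaction without replicate 5, at a median of -0.18, with 0 called by edgeR, DESeq2 or limma-voom and 6 at an unadjusted p under 0.05. Their median response was 0.08 in control and -0.13 in knockdown cells, and the median was -0.16 within each letter. In letter a Rsad2, Parp9 and B2m were called, all falling, and with all 24 libraries the list's median was -0.14 with 0 at an unadjusted p under 0.05. All groups had received adenovirus. Of 31 proteasome subunits, 29 were negative at a median of -0.09, with 0 called by edgeR, 2 falls by DESeq2 and 10 at an unadjusted p under 0.05. The proteasome median with all 24 libraries was -0.04, with 24 negative and 2 at such a p, and letter a called Psma4, which fell. All 45 ribosomal protein genes were negative at a median of -0.10, with 0 called by edgeR, 2 falls by DESeq2 and 22 at an unadjusted p under 0.05, whereas with all 24 libraries 29 of the 45 were negative at -0.01, with 0 at such a p.

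All 13 mitochondrially encoded transcripts were negative at a median of -0.28, with 0 called by edgeR, DESeq2 or limma-voom and 1 at an unadjusted p under 0.05. The median with all 24 libraries was -0.12, with 3 of 13 positive and 0 at such a p. In letter a 5 of the 13 were called, all falling. The median without replicate 5 was -0.06 with the length and GC trend removed. The trend itself was measurable: between the lowest and the highest decile of genes by GC content, the median interaction went from -0.09 to 0.08 without replicate 5 and from -0.05 to 0.05 with all libraries. Between the same GC deciles without replicate 5, the median stretch response went from 0.09 to -0.08 in control cells. In knockdown cells it went from 0.01 to -0.02. Between the shortest and the longest decile by transcript length the median interaction went from -0.02 to 0.04 without replicate 5. The part of this trend in the gene calls was not tested beyond the removal given above.

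**Figure D5:**
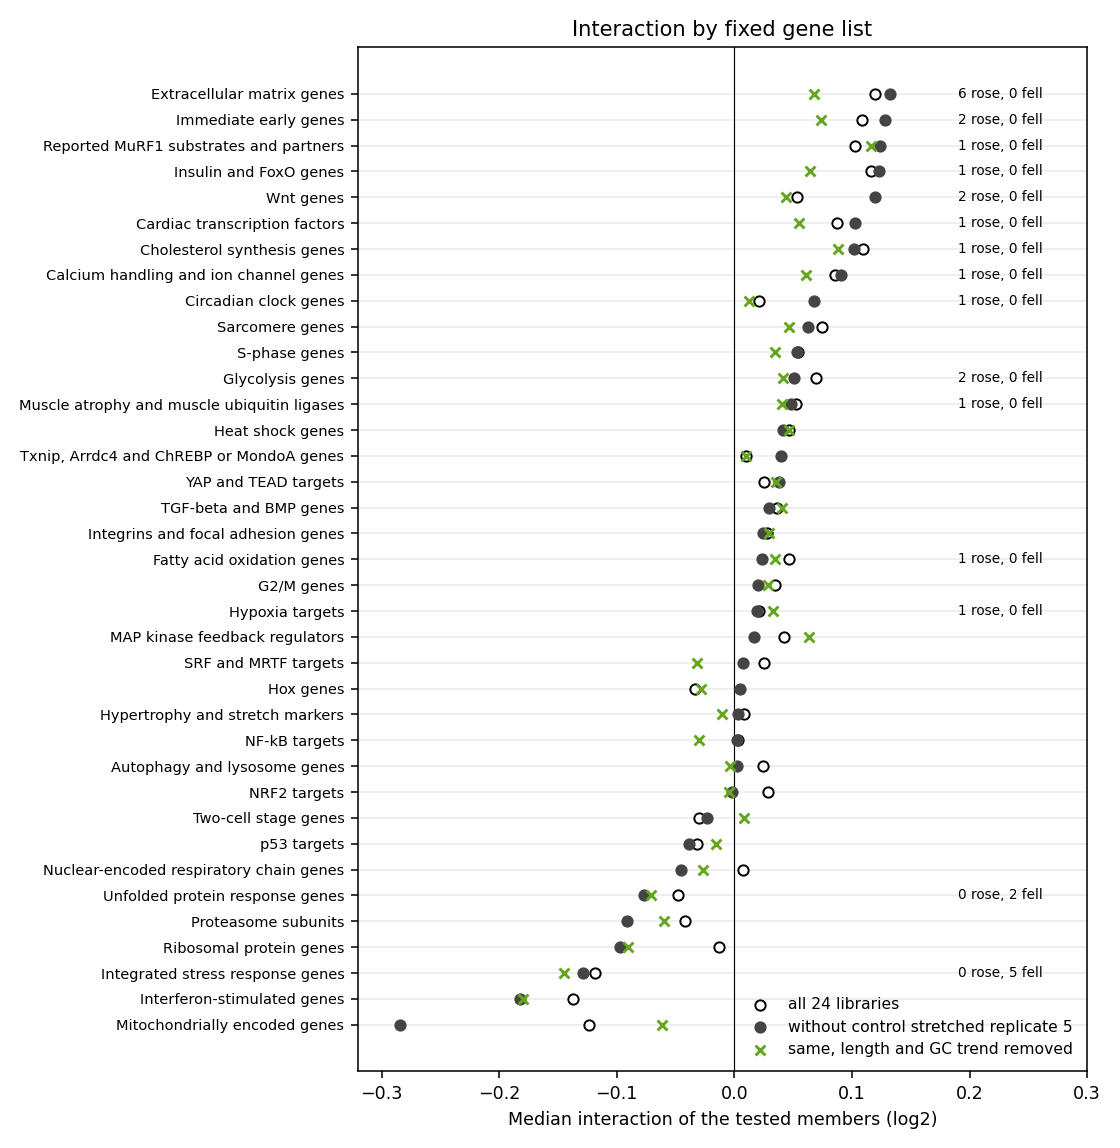
Median log2 interaction of the tested members of each pathway or complex list, with all 24 libraries (open), without stretched control replicate 5 (filled) and with the length and GC trend removed as well (crosses); numbers on the right count members called without replicate 5. The histone list and the cell type markers are not drawn. Matrix genes lie at 0.13 and integrated stress response genes at -0.13, and mitochondrially encoded genes went from -0.28 to -0.06 with the trend removed.

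The precision sets how small an interaction could be seen. The median SE was 0.078 with all 24 libraries and 0.0684 without replicate 5. The 95% interval lay within 1.5-fold on either side of no difference for 79.3% and 79.1% of the tested genes. For the remaining genes an interaction of 1.5-fold was not excluded by these libraries.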

How the data were processed

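Poly(A) RNA was sequenced from 24 HL-1 libraries. The authors deposited estimated counts for 20351 protein-coding genes, of which 36.6% of values were whole numbers, and a second table of normalized signal used here only as alternative offsets. Per the submitters' processing notes, GRCm38.p6, R 3.4.4, DESeq2 1.18.1 and kallisto 0.44.0 were used. For the annotation and strand setting the entry is "not given in the sources used here".

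Estimated counts were rounded and tested with edgeR 4.0.16 (quasi-likelihood, robust) in R 4.3.3, with TMM scaling, filterByExpr (minimum count 10, minimum total 15), 1 coefficient per group and 20 residual degrees of freedom. The script was tested on simulated data. CPM are TMM-scaled. DESeq2 1.42.0 and limma 3.58.1 were alternatives. Transcript length and GC content came from GENCODE vM21 for 92.9% of tested genes, and the removal of their trend used splines per library. The other genes had no trend removed. Of the genes called without stretched control replicate 5, all 83 rises and 24 of the 26 falls had these values. The letter fits and that removal were added after seeing the data.

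Lists, and the rule naming Trim63, Trim55, Trim54, up to 10 rises and 10 falls above an average log2 CPM of 1, leading list members and the smallest p-values, were chosen with earlier results of these data known. List members named beyond the rule, and the motifs, were chosen after their values were seen. Over 60 replicate pairs the chi-square per gene was at least 2.85, so no pair matched within sampling noise. Same-numbered libraries of different groups had correlations of deviations of -0.06 to 0.15, with 3 of 36 pairs over 0.1, so numbers were not taken as pairs.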

Additional observations from a re-analysis of the deposited data

Results flagged for a closer look

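A sample far from the other 5 of its group was looked for in 136 groups of CPM values of the named genes, and 16 were found. Chance marks about 1 in 20 such groups when the genes are not chosen by their values. Many of these genes were named from calls made without stretched control replicate 5. That choice favours genes in which that library stood apart, so the counts cannot be set against chance. Stretched control replicate 5 gave 8 of the 16: Foxred1 at 16.8, Hspg2 at 1649, Midn at 146.7, Nupr1 at 80.0, Nwd1 at 8.95, Star at 19.3, Zfp330 at 29.4 and Zfp97 at 10.8 CPM. Non-stretched knockdown replicate 4 gave 3, with Hspg2 at 806, Zfp330 at 54.2 and Zfp97 at 20.5 CPM. The others were Foxred1 in non-stretched knockdown replicate 1 at 21.7, Ier5 in stretched control replicate 6 at 91.3, Trib3 in non-stretched knockdown replicate 2 at 112, Trim63 in stretched knockdown replicate 1 at 83.5 and Zfp97 in non-stretched control replicate 1 at 13.5 CPM.

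The stretch response differed between knockdown and control cells by the test of the interaction itself, with all 24 libraries, for Fosb (1.87), Pdzd2 (0.38) and Dkk3 (0.31) on the log2 scale. The knockdown response was the more positive in each.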

How the results depend on the processing

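With all 24 libraries, 3 genes rose and 0 fell. The authors' normalized table as offsets gave 1 call, 1 rise. DESeq2 gave 111 (95 rises, 16 falls), limma-voom with sample quality weights 190 (151 and 39), the code letter as a block 45 (40 and 5), leaving out the 2 lowest-weighted libraries 163 (138 and 25), and removal of the length and GC trend 9 (6 and 3). Letter a alone gave 559 (364 and 195), letter a with the trend removed 46 (22 and 24), and letter b alone 0 with 0 rises. Leaving out single libraries gave 0 to 109 calls, 0 to 83 rises and 0 to 26 falls. Without stretched control replicate 5, where 83 rose and 26 fell, the offsets gave 57 (47 and 10), DESeq2 526 (417 and 109), no filter 10 falls, the letter block 309 (244 and 65), and removal of the trend 50 (27 and 23). Letter b gave 0, with 0 rises and 0 falls, or 3 with the trend removed (2 and 1). Leaving out a further library gave 6 to 329 calls, 6 to 251 rises and 0 to 78 falls. The causes were not tested.

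With the replicate number as a block, 9 genes were called (7 rises, 2 falls), and 228 (187 and 41) without stretched control replicate 5. The numbers were not taken as pairs, and whether they mark pairs was not settled. The median correlation was 0.015 between same-numbered libraries and -0.005 between others, and 8 of 24 libraries correlated best with their own number. Of the named genes, Trim63 alone changed sign, to -0.059 with quality weights, -0.0066 with no filter, -0.013 without the 2 lowest-weighted libraries, -0.00048 with the trend removed and -0.011 in letter b. Leaving out single libraries gave -0.071 to 0.057, and -0.087 to 0.023 without stretched control replicate 5.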
